A study of Mus musculus with 6 samples.

Results

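The 10 nuclear genes described here encode subunits of cytochrome c oxidase, complex IV of the mitochondrial respiratory chain. They were chosen by name, with earlier results of these data known, and all 10 were found among the 55774 genes of the deposited table. The genes are Cox4i1, Cox5a, Cox5b, Cox6a1, Cox6b1, Cox6c, Cox7a2, Cox7c, Cox8a and Ndufa4. They were measured by RNA sequencing in mouse blastocysts that had been cultured with oviductal extracellular vesicles (oEV) of human Fallopian tubes. One group received vesicles of women with endometriosis (oEV-EMT) and the other vesicles of women without it (oEV-ctrl), with 3 libraries per group and 10 pooled blastocysts per library. All embryos were wild type, came from ICR females aged 6 to 8 weeks, were labelled as taken at the two-cell stage and grew for 75 hours in CZB medium with vesicles. Neither group was cultured without vesicles, and vesicles were of human and embryos of mouse origin. The sample labels give uterine fibroids for the donors of the control vesicles, whereas the study's methods name another gynaecological condition.

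Cytochrome c oxidase is the last enzyme of the respiratory chain. It takes electrons from cytochrome c, reduces oxygen to water and moves protons across the inner mitochondrial membrane. Its catalytic core is encoded by the mitochondrial genes mt-Co1, mt-Co2 and mt-Co3, and the nuclear subunits surround that core and are imported after translation in the cytosol. During assembly Cox4i1 and Cox5a join mt-Co1 first, Cox5b, Cox6c, Cox7c and Cox8a belong to the module of mt-Co2, Cox6a1, Cox6b1 and Cox7a2 to that of mt-Co3, and Ndufa4 is added last. Respiration rises as mouse embryos form a blastocyst, whose outer trophectoderm cells are rich in active mitochondria.

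Of the nuclear subunits, Cox7c, Ndufa4, Cox6c and Cox6b1 were lower in all oEV-EMT libraries than in the lowest of the oEV-ctrl libraries. Cox7c was at 784 ± 153 FPKM with oEV-EMT and 1610.1 ± 139 FPKM with oEV-ctrl, and Ndufa4 at 398 ± 38.9 and 733 ± 57.6 FPKM (mean ± SD, n = 3). Cox6a1 was higher in every oEV-EMT library, at 3892 ± 333 against 3064 ± 442 FPKM. The groups overlapped for the other 5 genes. None of the 10 passed the thresholds of the study, which ask for an adjusted p (Benjamini-Hochberg) no higher than 0.05 together with a log2 fold change of 1 or more in size, and neither did any other gene (0% of 11924 tested with limma). The study itself applied these thresholds with another test, DESeq2, and reported differentially expressed genes. The outcome here belongs to limma on FPKM. At an unadjusted p of at most 0.05, 4 of the 10 were lower with oEV-EMT, against 2.55% of all tested genes, and 0 were higher, against 12.8%. The share of all tested genes lying wholly below the control libraries was 4.34%, and the share lying wholly above was 18.1%.

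FPKM are fragments per kilobase of transcript and per 1000000 fragments, so levels of different genes can be set side by side. The methods speak of TPM, yet the values summed to between 1293175 and 1551567 per library and were therefore taken as FPKM. Read totals are not in the table, and the steps of the lowest values put the relative depth of the libraries within 2.07-fold, from oEV-ctrl 1, the shallowest, to oEV-EMT 1, the deepest, with the libraries of both groups interleaved between them. Each step was the most frequent ratio to oEV-EMT 1 among 5592 to 7175 genes with low values. Only 21 to 33 of these genes held it, so the depths are rough estimates. The methods speak of repeated experiments but do not say whether the libraries of a group came from separate cultures, so the p-values measure the spread between these libraries, which may be technical. Over all tested genes the median log2 fold change was 0.17, which is a property of the whole table, and changes are given both as measured and relative to it. The fold changes refer to log2(FPKM + 1) and are oEV-EMT minus oEV-ctrl throughout. Trophectoderm markers were present in every library, and the groups overlapped for all 8. Their summed level was 3136 to 4746 FPKM in oEV-EMT and 3082 to 4836 FPKM in oEV-ctrl libraries. Most of this sum was Krt8 and Krt18, at means of 1179 and 2556 FPKM with oEV-EMT and 1191 and 2589 FPKM with oEV-ctrl. Epiblast markers summed to 142 to 175 and 63.5 to 122 FPKM. Of these 7 (none of them at 0) 4 lay wholly above the control libraries, beside 18.1% of all tested genes. Of the 7 primitive endoderm markers 2 lay wholly above, beside the same 18.1%. Their sums were 135 to 263 and 181 to 237 FPKM. Most of these sums was Dab2, at a mean of 158 FPKM with oEV-EMT and 183 FPKM with oEV-ctrl, with overlapping groups. Markers of oviduct epithelium summed to at most 0.349 FPKM and those of cumulus cells to at most 0.344 FPKM, with 2 of 4 and 4 of 6 listed at 0 in every library, while oocyte markers summed to 1.14 to 1.70 and 0.277 to 0.904 FPKM. The part of these markers in the differences below was not tested, and in pooled blastocysts fewer cells of a type and less RNA per cell cannot be told apart.

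Cox7c and Ndufa4 are shown by sequence, since they had the most negative log2 fold changes of the 10 and the study designed RT-PCR primers for both. By RT-PCR the study reported both as significantly lower with oEV-EMT. Each primer pair spans an intron in the GENCODE M21 annotation on GRCm38. The stretch of the reference transcript that each pair bounds is written 5′ to 3′ with the primer sites in capitals.
Ndufa4: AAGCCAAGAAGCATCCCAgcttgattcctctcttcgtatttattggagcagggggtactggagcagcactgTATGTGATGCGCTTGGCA
Cox7c: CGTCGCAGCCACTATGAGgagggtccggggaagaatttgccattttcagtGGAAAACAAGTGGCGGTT
The Ndufa4 stretch has 89 bases, with the forward site at chr6:11907326-11907343 in exon 1 and the reverse site at chr6:11906040-11906057 in exon 2, and no other listed gene holds both sites. The Cox7c stretch has 68 bases, with the forward site at chr13:86046616-86046633 in exon 1 and the reverse site at chr13:86045835-86045852 in exon 2. All 4 sites lie in coding sequence on the minus strand of the chromosome. Both Cox7c sites also occur, without an intron between them, in the processed pseudogene Gm12338 at chr11:75599763-75599954, which lies on the minus strand within an intron of Pitpna. The 192 bases of the Cox7c coding sequence, stop codon included, and those of Gm12338 differed at 0 positions. The shared sequence is given below with the same primer sites in capitals.
Cox7c and Gm12338: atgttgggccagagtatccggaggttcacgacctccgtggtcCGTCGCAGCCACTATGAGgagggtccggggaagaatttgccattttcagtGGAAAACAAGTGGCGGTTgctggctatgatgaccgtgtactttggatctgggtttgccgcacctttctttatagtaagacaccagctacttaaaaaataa

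The members were among the most abundant mRNAs of the blastocysts. Their values ran from 364 to 5999.7 FPKM over all libraries, whereas the median tested gene had a mean of 7.74 FPKM. By mean level over the 6 libraries Cox6c ranked 35 and Ndufa4, the lowest of the 10, ranked 274 of 11924 tested genes. All are short, with principal transcripts of 540 to 865 bases against a median of 2281 bases over tested genes and proteins of 63 to 169 amino acids, and they lie on 9 chromosomes. Together they made up 2.87%, 2.54% and 2.82% of the FPKM of all Ensembl genes with oEV-EMT, beside 2.86%, 3.07% and 2.93% with oEV-ctrl, so the groups overlapped in this share. Rows without an annotation, named new_gene, held 37.1% to 45.7% of the sum over all rows, and of that sum the 10 genes made up 1.44% to 1.93%, again with overlap. Their sum was 21111 ± 1607 FPKM with oEV-EMT and 24524 ± 1284 FPKM with oEV-ctrl. Unlike the shares, this unscaled sum did not overlap, with 19422 to 22620 FPKM against 23521 to 25972 FPKM.

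**Figure D1:**
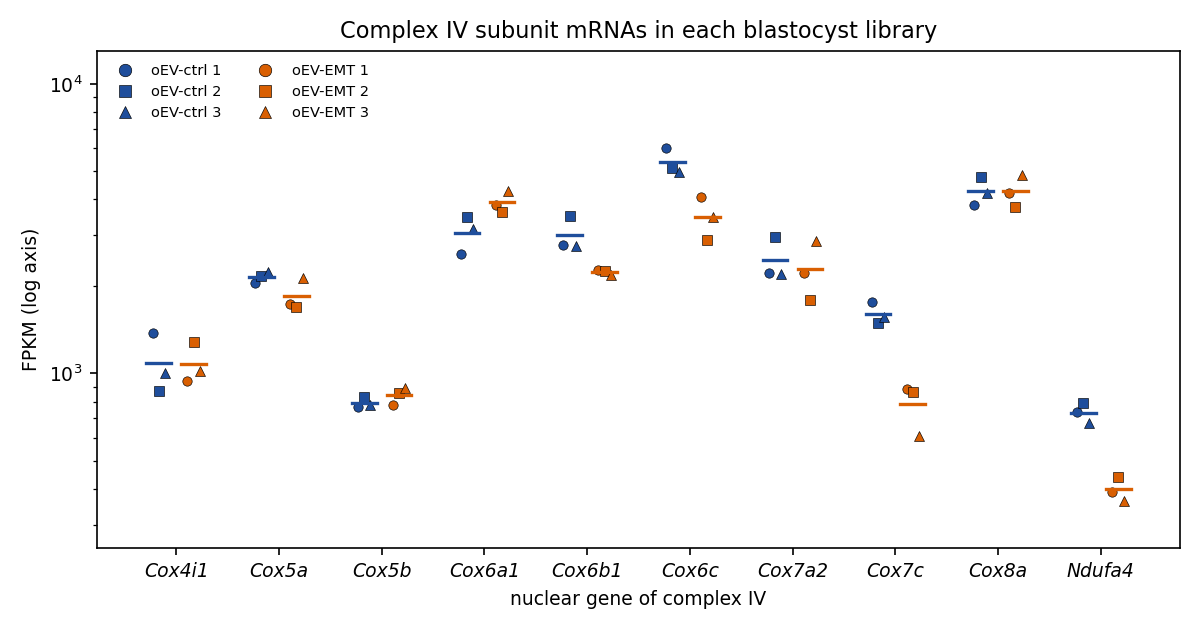
FPKM (log axis) of the 10 nuclear complex IV genes in each library, with oEV-ctrl in blue and oEV-EMT in orange, a marker shape for each replicate number and a bar at the arithmetic mean of 3 libraries. The orange points of Cox6b1, Cox6c, Cox7c and Ndufa4 all lie below the blue ones, those of Cox6a1 lie above, and the others overlap.

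Cox4i1 (ENSMUSG00000031818, chr8:120668222-120674207), the common isoform of the largest nuclear subunit, had 939, 1287 and 1018 FPKM in oEV-EMT libraries 1 to 3 and 1381, 873 and 1000.3 FPKM in oEV-ctrl libraries 1 to 3. The control values enclosed those of oEV-EMT, and the fold change of 0.01 (SE 0.22, adjusted p = 0.988, limma) was far smaller than the spread. Part of Cox4i1 overlaps Emc8 on the other strand, and reads of both cannot be told apart without strand. Cox5a (ENSMUSG00000000088, chr9:57521274-57532426), its partner in the first step of assembly, had 1735, 1694 and 2137 FPKM with oEV-EMT and 2050.4, 2171 and 2248 FPKM with oEV-ctrl. The first 2 of these oEV-EMT libraries were below all controls and the remaining one was not, with a log2 fold change of -0.22 (SE 0.18, adjusted p = 0.569). When the libraries were scaled by the median of ratios, the Cox5a values no longer overlapped.

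Among the genes of the mt-Co2 module, Cox5b (ENSMUSG00000061518, chr1:36691449-36693681), a subunit on the matrix side that binds zinc, had 778, 854 and 889 FPKM with oEV-EMT and 766, 828 and 779 FPKM with oEV-ctrl. Its ranges overlapped, and the log2 fold change was 0.09 (SE 0.17, adjusted p = 0.834, limma). Cox8a (ENSMUSG00000035885, chr19:7215153-7217616), the isoform of subunit 8 found in most tissues, had 4193, 3759 and 4844 FPKM with oEV-EMT and 3805, 4759.6 and 4187 FPKM with oEV-ctrl. The log2 fold change of Cox8a was 0.00 (95% interval -0.40 to 0.41, adjusted p = 0.995), and its groups overlapped.

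Cox6c (ENSMUSG00000014313, chr15:35925886-35938246), a subunit without tissue isoforms that spans the membrane, was the most abundant of the 10 in the control libraries. It had 5999.7, 5139 and 4951 FPKM with oEV-ctrl and 4055, 2883 and 3471 FPKM with oEV-EMT. Every oEV-EMT value was below the lowest control value. Its log2 fold change was -0.64 (SE 0.19, 95% interval -1.06 to -0.22, unadjusted p = 0.00703 and adjusted p = 0.184, limma), or -0.81 relative to the median of all tested genes. Its gene overlaps Vps13b on the other strand. Under quantile normalization the Cox6c groups overlapped, with a log2 fold change of -0.47.

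Cox7c (ENSMUSG00000017778, chr13:86044816-86046904), a small membrane-spanning subunit, had 882, 864 and 608 FPKM with oEV-EMT and 1764, 1496 and 1570.1 FPKM with oEV-ctrl. The highest oEV-EMT value was well under the lowest control value, and oEV-EMT library 3 was the lowest of all. The log2 fold change of -1.05 (SE 0.20, 95% interval -1.50 to -0.61, unadjusted p = 3.35e-04 and adjusted p = 0.101, limma) reached the fold threshold and missed that for the adjusted p. It was the largest of the 10 in size, and relative to the median of all tested genes it was -1.22. Without oEV-EMT library 3 it was -0.88, and without oEV-EMT library 1 it was -1.15.

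Of the mt-Co3 module, Cox6a1 (ENSMUSG00000041697, chr5:115345642-115348981), the isoform of subunit 6A outside heart and skeletal muscle, had 3823, 3599.7 and 4254 FPKM with oEV-EMT and 2587, 3459 and 3145 FPKM with oEV-ctrl. It was the 1 member whose oEV-EMT values all exceeded the controls, by 0.35 on the log2 scale (SE 0.18, 95% interval -0.05 to 0.76, adjusted p = 0.383, limma). The difference stayed positive under every scaling tried, but the groups overlapped under the median of ratios (0.15), the upper quartile (0.09) and the correction for transcript length (0.25). Cox7a2 (ENSMUSG00000032330, chr9:79755361-79759878), the corresponding isoform of subunit 7A, had 2216, 1790.5 and 2856 FPKM with oEV-EMT and 2218, 2960.4 and 2205 FPKM with oEV-ctrl. Library 2 of oEV-EMT was low and library 3 high, and the log2 fold change was -0.12 (SE 0.22, adjusted p = 0.822).

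Cox6b1 (ENSMUSG00000036751, chr7:30616861-30626151), a subunit that faces the intermembrane space, had 2281, 2251 and 2179.9 FPKM with oEV-EMT and 2772, 3498 and 2763 FPKM with oEV-ctrl. Its oEV-EMT values were the tightest of the 10 genes relative to their mean and lay wholly below the controls, of which library 2 was high. The log2 fold change was -0.42 (SE 0.18, 95% interval -0.81 to -0.03, unadjusted p = 0.0373 and adjusted p = 0.293, limma). Of the 4 genes lying wholly below the controls it was the one whose unadjusted p was most often above 0.05: with 1 library left out the p was 0.0393 without oEV-ctrl library 1 and from 0.0564 to 0.160 without any of the others.

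Ndufa4 (ENSMUSG00000029632, chr6:11900292-11907497) was first described with complex I and is now counted as a subunit of complex IV. It had 389.7, 440.0 and 364 FPKM with oEV-EMT and 735, 789 and 674 FPKM with oEV-ctrl. The groups were well apart and each was narrow, with SDs of 38.9 and 57.6 FPKM. The log2 fold change was -0.88 (SE 0.18, 95% interval -1.28 to -0.49, unadjusted p = 5.21e-04 and adjusted p = 0.105, limma), short of both thresholds.

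**Figure D2:**
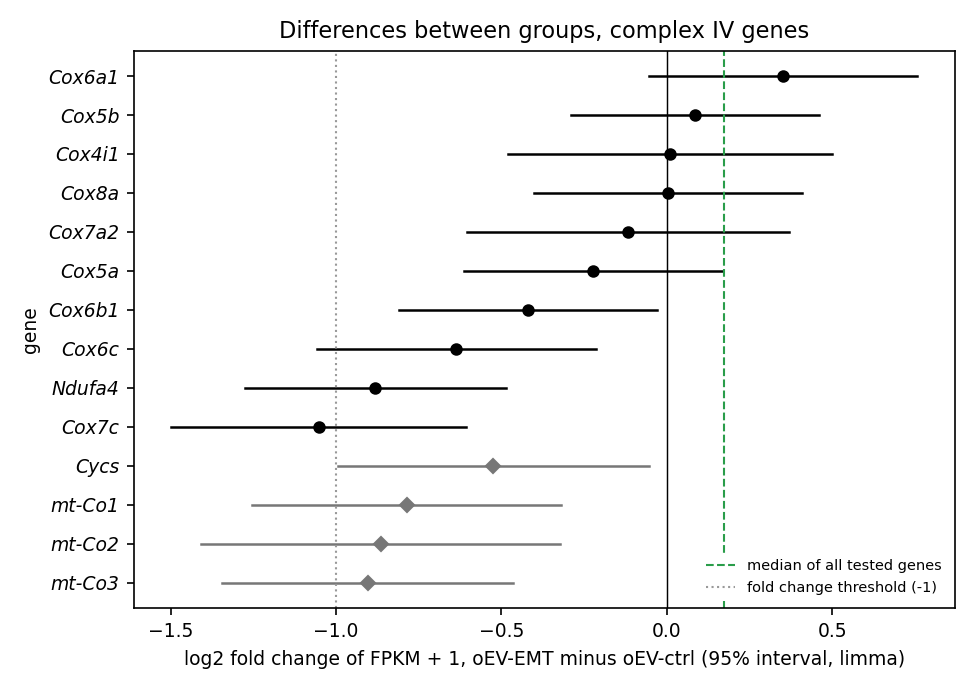
Log2 fold changes (points) with 95% limma intervals (lines) of the 10 nuclear complex IV genes in black and of Cycs and the mitochondrially encoded core in grey, oEV-EMT minus oEV-ctrl on log2(FPKM + 1). The dashed line is the median of all tested genes (0.17), and the dotted line is the fold threshold, which Cox7c alone of the 10 passed with its point estimate of -1.05.

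The 10 log2 fold changes had a median of -0.17, a difference of -0.34 from that of all tested genes, and 9 of 10 were smaller than the latter. This list was chosen with earlier results of these data known and received no test of its own. With the libraries scaled by the median of ratios the median of all genes was 0.01, 5 of the 10 lay wholly below the controls against 10.3% of all tested genes, and 0 lay wholly above against 9.85%. The 5 were the 4 genes named above and Cox5a. With a correction for transcript length the same 5 lay wholly below against 9.84% and 0 wholly above against 9.52%, and with upper quartile scaling the counts were again 5 against 12.5% and 0 against 7.59%. The 4 genes kept their negative sign in every alternative, and in all of those over the whole table except quantile normalization they all lay wholly below.

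The order of the levels differed between the groups. In the control libraries Cox6c came first and exceeded Cox8a in all 3, and Cox8a in turn exceeded Cox6a1 in all 3, without overlap of the ranges. Cox6b1, Cox7a2 and Cox5a followed, each with a range that overlapped that of the gene above it, and Cox7c, Cox4i1, Cox5b and Ndufa4 closed the series, the last pair with overlapping ranges. In the oEV-EMT libraries Cox8a, Cox6a1 and Cox6c formed the top with overlapping ranges, and Cox6c was below Cox6a1 in 2 of 3 libraries. Cox7c stood above Cox4i1 in 3 of 3 control libraries without overlap, whereas with oEV-EMT its mean came after those of Cox4i1 and Cox5b. The ranges of Cox5b and Cox7c overlapped, and Cox5b was the higher in only 1 of 3 oEV-EMT libraries. The change of place with Cox4i1 was seen in the Cox7c row. Its FPKM were also added to those of 2 copies that share its sequence, described below. The sums were 1516, 1646 and 1168 FPKM with oEV-EMT, above Cox4i1 in 3 of 3 libraries. FPKM are per kilobase, and the copy Gm12338 has 192 bases against 540 in the Cox7c transcript. Such a sum counts a read of the copy more heavily, so it does not decide the order of Cox7c and Cox4i1. Cox7c, Ndufa4, Cox6c and Cox6b1 together made up 35.7%, 33.1% and 29.3% of the sum of the 10 genes with oEV-EMT and 46.8%, 42.1% and 42.3% with oEV-ctrl. These 4 were grouped after their values were seen, so this split is a description.

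Ratios within a library do not depend on how libraries are scaled to each other. The ratio of Cox7c to Cox4i1 was 0.939, 0.671 and 0.597 with oEV-EMT and 1.28, 1.71 and 1.57 with oEV-ctrl. The groups did not overlap, and the mean log2 ratio differed by -1.06 (exact two-sided permutation p = 0.1, the smallest that 3 against 3 libraries allow). The ratio of Ndufa4 to Cox4i1 was 0.415, 0.342 and 0.357 with oEV-EMT and 0.532, 0.904 and 0.674 with oEV-ctrl, a difference of -0.89 (exact permutation p = 0.1). Here too all oEV-EMT values were lower, while the control libraries varied more among themselves. Against Cox8a, as another subunit with little difference in its mean, the differences were -1.06 for Cox7c and -0.89 for Ndufa4. With such a denominator they had to lie near the fold changes of both genes, so they add no separate support. Against the sum of the other 9 genes they were -0.88 and -0.68, again without overlap. Cox6c to Cox6a1, genes that differed in opposite directions, gave 1.06, 0.801 and 0.816 with oEV-EMT and 2.32, 1.49 and 1.57 with oEV-ctrl. Cox6c thus exceeded Cox6a1 in every control library, and in 1 of 3 oEV-EMT libraries. Since Cox6c lay wholly below the controls and Cox6a1 wholly above, their ratio had to separate the groups and adds no separate support. For Cox6b1 to Cox4i1 the groups overlapped (exact permutation p = 0.3).

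**Figure D3:**
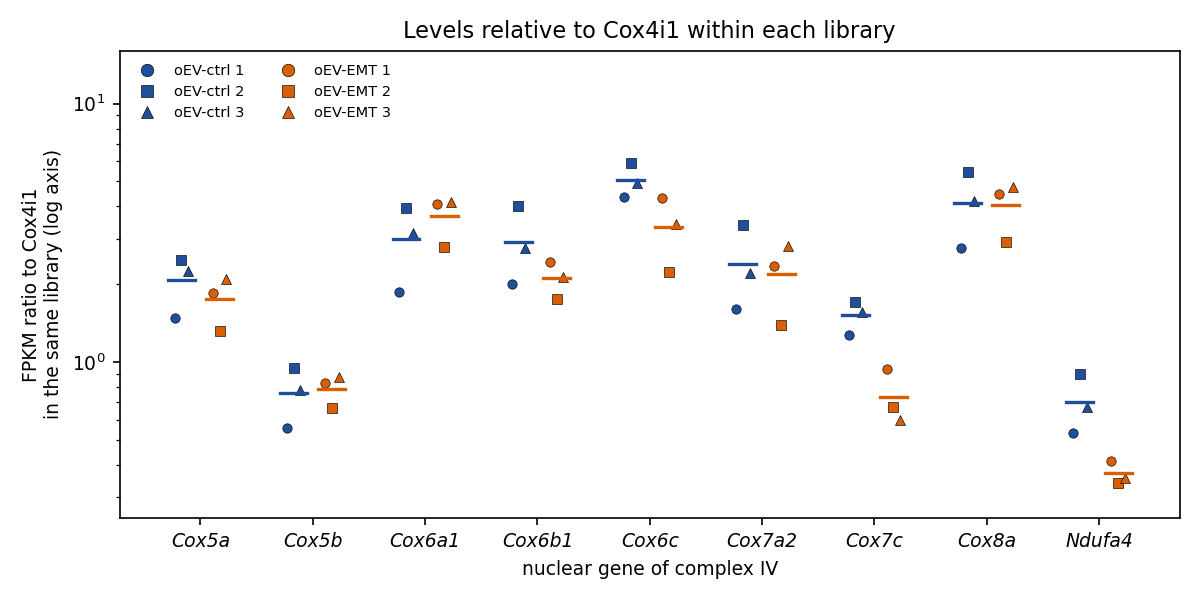
FPKM of 9 nuclear complex IV genes divided by that of Cox4i1 in the same library (log axis), with oEV-ctrl in blue, oEV-EMT in orange, a marker shape for each replicate number and bars at the arithmetic mean. Cox7c and Ndufa4 are separated by group, with mean Cox7c ratios of 0.736 for oEV-EMT and 1.52 for oEV-ctrl. Cox6c is separated only barely, with a highest oEV-EMT ratio of 4.32 and a lowest oEV-ctrl ratio of 4.34. The other ratios overlap.

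Several of the genes have copies elsewhere in the genome that share their sequence, so that reads may be split between rows. Of the 10, 4 share at least 10% of their stretches of 50 bases, or of those of the other gene, with another listed gene. Gm12338, the copy of Cox7c shown above, had 599, 745 and 533 FPKM with oEV-EMT and 1045, 988 and 909.8 FPKM with oEV-ctrl, a log2 fold change of -0.66 (SE 0.19, adjusted p = 0.174, limma). Its groups were apart in the same direction as those of Cox7c. Another copy, Gm10012, differs from the Cox7c coding sequence at G30C and G107A (the Cox7c base, the position from 1 at the A of the start codon, then the base of the copy). It had 34.7, 37.1 and 27.8 FPKM with oEV-EMT and 66.2, 57.7 and 49.7 FPKM with oEV-ctrl, and its log2 fold change was -0.78. Of the summed FPKM of these 3 rows the Cox7c row held 52.0% to 62.1%. The log2 fold change of the sum was -0.89 (adjusted p = 0.118, limma), again with no overlap. The rows differ in length, so these are shares of FPKM and not of reads. The sum gives the short Gm12338 more weight than its reads would.

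Cox6c2, a copy of Cox6c with 7 differences in 231 coding bases, had 210, 174 and 218 FPKM with oEV-EMT and 341, 275 and 261 FPKM with oEV-ctrl, a log2 fold change of -0.54. The Cox6c row held 94.1% to 95.1% of their summed FPKM, again not a share of reads, and the log2 fold change of the sum was -0.63. Gm11273, which differs from Cox5b at 3 of 390 coding bases, had 195 ± 24.6 and 195 ± 20.2 FPKM and a log2 fold change of 0.00. AC148174.2, a copy of Cox6a1, had 16.5, 15.3 and 17.9 FPKM with oEV-EMT and 7.32, 14.97 and 13.5 FPKM with oEV-ctrl (log2 fold change 0.49, adjusted p = 0.407), wholly above the controls, and left the value of Cox6a1 at 0.35 when added to it. The copies of Cox7c, Cox6c and Cox6a1 thus lay apart between the groups in the same direction as the subunit gene, and that of Cox5b overlapped as Cox5b did. How the reads were divided among these rows was not tested, and the values of the single rows of Cox7c and its copies are uncertain to that extent.

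**Figure D4:**
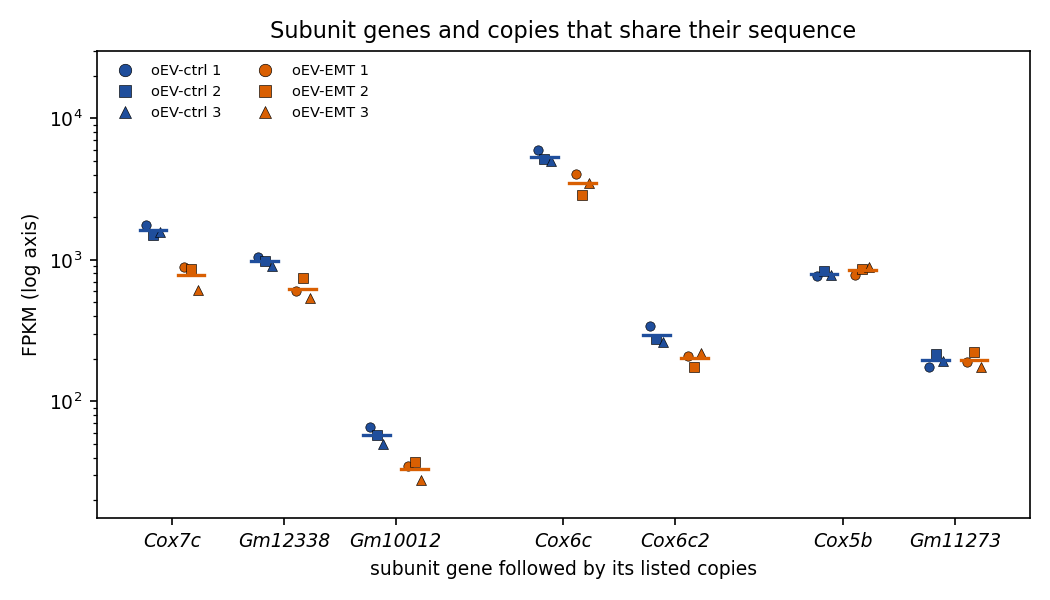
FPKM (log axis) of Cox7c, Cox6c and Cox5b, each followed by its listed copies, in the 3 oEV-ctrl (blue) and 3 oEV-EMT (orange) libraries, with bars at the arithmetic mean. Gm12338 and Gm10012 are lower with oEV-EMT as Cox7c is, Cox6c2 is lower as Cox6c is, and Cox5b and Gm11273 overlap between the groups.

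The mitochondrially encoded core was lower in all oEV-EMT libraries. mt-Co1, the subunit that holds the site of oxygen reduction, had 5277, 6607 and 7576 FPKM with oEV-EMT and 13609.9, 10780.2 and 9255 FPKM with oEV-ctrl, a log2 fold change of -0.79 (adjusted p = 0.164, limma). mt-Co2, which receives the electrons of cytochrome c, had 4032, 5659.8 and 7384 FPKM with oEV-EMT and 12249, 9969 and 8351 FPKM with oEV-ctrl (-0.87, adjusted p = 0.174), and mt-Co3, the remaining core subunit, had a log2 fold change of -0.90 (adjusted p = 0.118). The groups did not overlap for any of the 3 genes, beside 4.34% of all tested genes that lay wholly below the controls. None of the 3 passed the adjusted threshold. The sum of the 3 core genes divided by that of the 10 nuclear genes was 0.627, 0.918 and 0.850 with oEV-EMT and 1.46, 1.16 and 1.05 with oEV-ctrl. The libraries were selected for polyadenylated RNA, and mitochondrial mRNAs carry short tails, so this ratio is one of captured RNA. Cycs, the cytochrome c of somatic tissues, was at 263 ± 55.6 and 374 ± 42.1 FPKM and wholly below the controls (-0.52, adjusted p = 0.279). Cyct, the cytochrome c best known from testis, overlapped between the groups at 173 ± 67.9 and 148 ± 26.2 FPKM.

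Of 11 further nuclear subunits and tissue isoforms, 7 reached 1 FPKM in 3 or more libraries and entered the test. The median of their log2 fold changes was -0.18, 0 lay wholly below the controls and 2 wholly above, beside 4.34% and 18.1% of all tested genes. At an unadjusted p of at most 0.05, 1 was lower and 2 were higher, beside 2.55% and 12.8% of all tested genes. Cox7b, a constitutive subunit of the mt-Co2 module, had 1381, 1682 and 2663 FPKM with oEV-EMT and 1555, 2483 and 2325 FPKM with oEV-ctrl, a fold change of -0.18 within the spread. AA467197, also known as Nmes1, is a paralog of Ndufa4 and had 443, 788 and 865 FPKM with oEV-EMT and 781, 1212 and 832 FPKM with oEV-ctrl. The groups of AA467197 overlapped (log2 fold change -0.46, adjusted p = 0.458, limma), and so did the ratio of Ndufa4 to it within libraries (exact permutation p = 0.3).

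The isoforms of other tissues were low beside the 10 genes. Cox7a1, the muscle isoform of subunit 7A, was at 30.1 ± 2.02 and 21.3 ± 2.42 FPKM, and Cox7a2l, which takes part in joining complexes III and IV, at 149 ± 15.1 and 115 ± 9.25 FPKM. Both lay wholly above the controls, by 0.48 and 0.37 on the log2 scale, with adjusted p of 0.293 and 0.372 (limma). Cox6b2, best known from testis, was at 20.1 ± 5.23 and 12.1 ± 4.40 FPKM and Cox7b2 at 4.04 ± 1.14 and 8.03 ± 2.99 FPKM, both with overlapping groups. Cox6a2, the muscle isoform of subunit 6A, ranged from 0.612 to 7.36 FPKM over the libraries. Cox4i2, Cox8c and Ndufa4l2 were at most 0.633, 2.09 and 0.0547 FPKM, under the limit for testing, and Cox8b was listed at 0 in every library.

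The assembly factors of complex IV, which insert its copper and haem and help its subunits into the membrane, had a median close to that of all tested genes. All 28 listed factors were tested. At an unadjusted p of at most 0.05, 0 were lower and 4 higher, beside 2.55% and 12.8% of all tested genes. Wholly below the controls lay 0 and wholly above 7, beside 4.34% and 18.1% of all tested genes. Their median log2 fold change was 0.18, which is 0.01 from that of all tested genes. The largest positive values were those of Cox19 (0.69, adjusted p = 0.184), Cmc2 (0.67, adjusted p = 0.215) and Cox18 (0.63, adjusted p = 0.383, limma), the first of which has a role in copper delivery and the last in the insertion of mt-Co2. The lowest were Cox11, a copper chaperone, at -0.12, Lrpprc, which stabilises mitochondrial mRNAs, at -0.10, and Cox16 at -0.10.

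Of 10 genes for transcription factors and coactivators of respiratory genes, 9 were tested and Ppargc1a was listed at 0 in all libraries. Their median log2 fold change was 0.29. Gabpa, the DNA-binding part of the ETS factor NRF-2, was at 34.0 ± 5.74 and 22.6 ± 4.61 FPKM (0.57, adjusted p = 0.277, limma), with overlapping groups. Nrf1 was at 19.4 ± 5.54 and 13.5 ± 2.85 FPKM (0.48) and Pprc1, a coactivator of the PGC-1 family, at 5.81 ± 2.41 and 4.10 ± 0.843 FPKM (0.37). Yy1 was at 7.85 ± 1.50 and 10.4 ± 0.974 FPKM, wholly below the controls (-0.38, adjusted p = 0.437). Ppargc1b had a log2 fold change of -0.16, and Esrra, of 0.15, lay closest below the median of all tested genes.

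These factors have known DNA motifs, and the promoters of the members were read to see which of them hold one. RefSeq windows on GRCm38.p6, from 250 bases before to 50 bases after the start, were found for 8 of the 10 genes, all but Cox4i1 and Cox6c. The motif CCGGAAG of ETS factors was present on either strand in 3 of the 8, beside 8.86% of 32851 windows. The NRF1 palindrome, GCGCA followed directly by its reverse complement, was present in 1, beside 0.971%, and AAGATGGC of YY1 in 0, beside 2.75%. Stretches of 30 bases around the matches, with the motif in capitals on the strand of the gene, are shown for the genes that hold them.
Cox6a1, 162 bases before the start: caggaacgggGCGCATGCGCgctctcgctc
Cox6a1, 16 bases before the start: ccccatttccgCTTCCGGcgcgccggtgta
Cox6b1, 28 bases before the start: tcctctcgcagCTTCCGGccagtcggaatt
Cox8a, 5 bases before the start: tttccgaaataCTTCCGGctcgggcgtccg
Cox8a, 32 bases after the start: tcagcgccggaaCTTCCGGctggttcggcc
They lie at chr5:115349101-115349130, chr5:115348956-115348985, chr7:30626124-30626153, chr19:7217603-7217632 and chr19:7217567-7217596, all on the minus strand. Cox6a1, with both kinds of motif, was the member with a positive non-overlapping difference, Cox6b1 was among the lower genes, and Cox8a had a log2 fold change of 0.00. The windows of Cox7c and Ndufa4, the genes with the most negative fold changes, and those of Cox5a, Cox5b and Cox7a2 held none of these letters, which says nothing of other sequences the factors may bind.

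The 10 genes did not share 1 profile over the libraries. Their mean centred profile was -0.15, -0.18 and -0.10 for oEV-EMT and 0.14, 0.20 and 0.09 for oEV-ctrl on the log2 scale. The root-mean-square distance from it was 0.11 for Cox5a and Cox6b1, the closest, and 0.44 for Cox7c, the farthest, followed by Cox6a1 at 0.34 and Ndufa4 at 0.32. The tested genes outside the list with the smallest distance from that profile over the 6 libraries were Rap2c (0.0454), Cd2ap (0.0485), Bmpr2 (0.0494), Hbegf (0.0588) and Smad4 (0.0619). Their mean levels were from 1.59 to 38.1 FPKM in either group, far below those of the members.

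**Figure D5:**
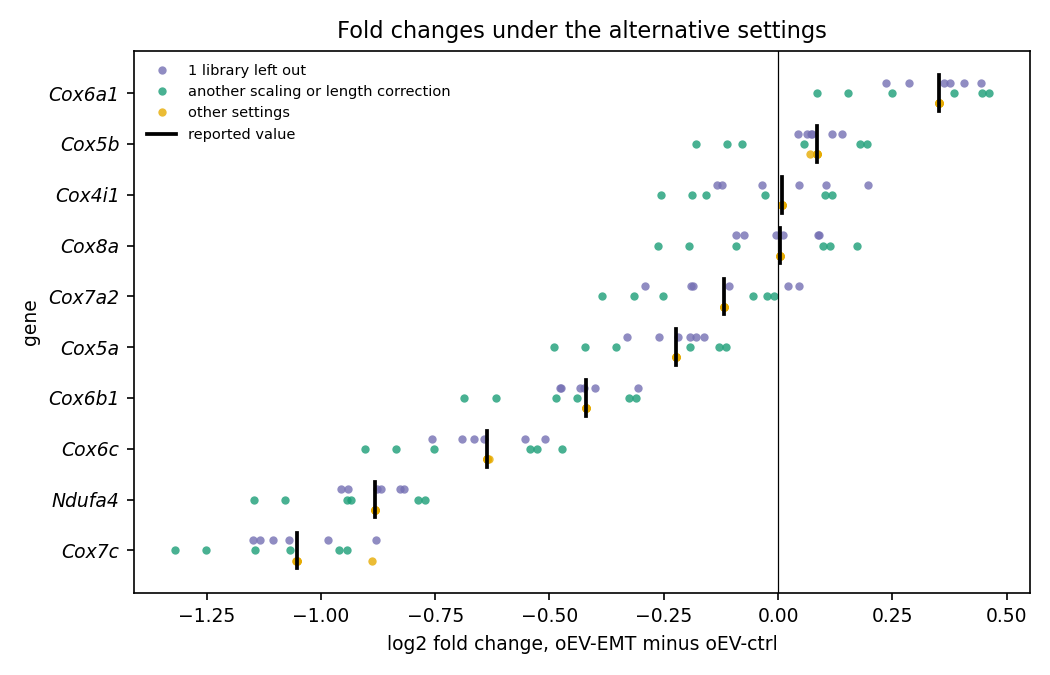
Log2 fold changes of the 10 nuclear complex IV genes, oEV-EMT minus oEV-ctrl, as reported (black line) and under the alternatives, with 1 library left out in purple, another scaling or a length correction in green and other settings in yellow. Cox7c (-1.32 to -0.88), Ndufa4 (-1.15 to -0.77), Cox6c and Cox6b1 stay left of 0 and Cox6a1 right of it, while Cox4i1, Cox5b, Cox7a2 and Cox8a cross it.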

How the data were processed

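RNA of 6 pools of 10 blastocysts was isolated, polyadenylated RNA was selected with oligo (dT) beads, and TruSeq libraries were sequenced. Per the labels the build was mm10 and StringTie assembled the transcripts, whereas the aligner is not given in the sources used here. The authors deposited 1 value per gene and library, treated here as FPKM because the sums differ and exceed 1000000. Read counts were not analysed here. After removal of genes that reached 1 FPKM in fewer than 3 libraries, log2(FPKM + 1) was fitted with limma 3.58.1 (trended, robust) in R 4.3.3, without scaling between libraries or covariates, over all 11924 genes, with Benjamini-Hochberg adjustment. The scripts were tested on simulated data. Members and gene lists were chosen with earlier results of these data known. All 10 members are named. Of the other lists, all subunit isoforms, the mitochondrial core and cytochrome c are named, together with up to 3 assembly factors and 3 transcription factors in each direction relative to the median of all genes, the 5 genes nearest to the members' mean profile, and copies that share sequence. Coordinates and lengths came from GENCODE M21 (GRCm38, matching 55227 identifiers) and promoters from RefSeq. Alternatives covered scaling, filter, pseudocount, thresholds, a loess correction for length (span 0.5), the replicate number as a block and the removal of single libraries. Plots were made with matplotlib 3.10.9.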

Additional observations from a re-analysis of the deposited data

How the results depend on the processing

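None of the 10 genes passed the fold and the adjusted p threshold together in any of the 19 alternatives. Of the 10, 3 to 5 were lower at an unadjusted p of at most 0.05 and 3 to 5 lay wholly below the controls. The background moved as well. Of all 11924 tested genes, 183 were lower at that p with sums over Ensembl genes and 963 with the upper quartile. Those lying wholly below were 304 and 1494 under the same settings. The adjusted p ranged from 0.0745 to 0.609 for Cox7c and from 0.0776 to 0.609 for Ndufa4, the highest without a filter on low values. Over all genes 0 passed both thresholds, 22 passed an adjusted p of 0.1 with no fold threshold, and leaving out 1 library gave 0 to 16 (4 without oEV-EMT 1, 1 without oEV-EMT 3, 16 without oEV-ctrl 3). The median of the members was -0.077 with sums of 1000000, -0.061 with sums over Ensembl genes, -0.37 with the median of ratios, -0.44 with the upper quartile, -0.30 with the length correction and -0.31 to -0.14 with 1 library left out, the lowest without oEV-EMT 3. Relative to all genes it was -0.12 under quantile normalization and -0.52 to -0.28 with 1 library left out, again lowest without oEV-EMT 3. The sign turned for Cox4i1 (median of ratios -0.19, upper quartile -0.26, quantile -0.028, length -0.16, 1 library left out -0.13 to 0.20), Cox5b (-0.11, -0.18 and -0.079 under the median of ratios, the upper quartile and length), Cox8a (-0.19, -0.26 and -0.092 under the same, -0.092 to 0.091 with 1 library left out) and Cox7a2 (-0.29 to 0.046 with 1 library left out). The cause was not tested. The difference in the ratio to Cox4i1 was -1.25 to -0.93 for Cox7c and -1.08 to -0.69 for Ndufa4 with 1 library left out. Fitting the replicate number as a block gave 21 genes past both thresholds, 0 of them members. Under this block 3 members were lower at the unadjusted threshold, beside 281 of 11924 tested genes, and Cox6b1 no longer was. The deviations of libraries with the same number correlated by 0.119, -0.0442 and 0.0388, and not every library correlated best with its own number. Deviations within groups of 3 libraries cannot decide whether equal numbers were paired, and the labels do not say. Depth could be compared only between libraries, and no counting error was computed from it.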
